A study of Mus musculus with 12 samples.

Results

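The 4 arrays described here hold RNA of C2C12 cells that received an siRNA against BRG1 (siBRG1), 2 collected 48 h and 2 collected 18 h after the change to differentiation medium. They are 4 of the 12 arrays of the series and were taken by their labels, not by their values. C2C12 is an immortalized mouse myoblast line, and per the labels the siRNA was transfected at 100 nM with a lipid reagent. The medium change replaced serum-rich growth medium with medium low in horse serum and supplied with ITS. The other 8 arrays are 4 each of cells given a scrambled siRNA (siSCR) and of cells given an siRNA against BRM (siBRM), again 2 at 48 h and 2 at 18 h. All 12 samples are of 1 cell line, all were transfected, and no array of cells in growth medium was analysed here. The labels do not say if replicates 1 and 2 came from separate cultures, and the p-values then cover the spread of these arrays alone, which may be technical.

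BRG1, the product of Smarca4, is an ATPase of the SWI/SNF complexes, which use ATP to move nucleosomes and open chromatin at promoters and enhancers. BRM, the product of Smarca2, is the other ATPase, and a complex holds either of them. In muscle differentiation MyoD and myogenin recruit such complexes to muscle genes, while myoblasts leave the cell cycle, fuse into myotubes and assemble sarcomeres. The question put to these arrays is which genes still rose or fell between 18 h and 48 h when BRG1 had been targeted.

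Signals were read on Illumina mouse BeadChips as fluorescence intensities, background-corrected, quantile normalized and taken to log2. In replicate 1 each time has a BeadChip of its own, and the time cannot be told apart from the chip, while both times of replicate 2 share a BeadChip. The mean signal was 664.9 and 1418 on the 48 h arrays of replicates 1 and 2, against 513 and 1349 on the 18 h arrays. Of the 45281 probes 32.9% and 37.7% were detected at 48 h and 27.3% and 38.2% at 18 h. A step below is the log2 signal at 48 h minus that at 18 h of the same replicate number, and a gene is read from its brightest tested probe. Over the 10847 tested genes the median step was -0.02 with siBRG1 and -0.06 with siSCR. Scaling each array on its median instead moved these medians to 0.15 and 0.27, so every step holds relative to such a shift.

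The labelled cell type was checked on marker genes. Of 53 sarcomere genes on the array 23 were detected on all 4 siBRG1 arrays. Of 8 endothelial markers none was, with Pecam1, Cdh5 and Tek at background on all 4. Of 8 blood and macrophage markers 1 was (Cd14), of 13 adipocyte markers 2 were (Pparg and Lpl) and of 12 osteoblast and chondrocyte markers 1 was (Sox9). Of 9 smooth muscle markers 5 were (Acta2, Tagln, Smtn, Actg2 and Des), and Myh11, Cnn1 and Lmod1 were at background. Des is in the sarcomere list too. The mean log2 level of the 9 smooth muscle markers, Des included, was 9.56 and 9.25 at 48 h, against 9.19 and 8.86 at 18 h. Their part in the results below was not tested. RNA of a whole culture does not tell apart fewer cells of a kind and less RNA per cell.

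Smarca4, the target, had a log2 signal of 6.14 and 7.68 at 48 h with siBRG1 in replicates 1 and 2, against 6.09 and 8.04 at 18 h. In replicate 1 both values are at background. With siSCR it had 8.60 and 9.10 at 48 h, against 7.46 and 9.09 at 18 h. Within each replicate the siBRG1 array was thus below its siSCR array at both times, and in replicate 2 the Smarca4 signal was still above background. Smarca2, which encodes the other ATPase, had 11.05 and 9.89 at 48 h with siBRG1, against 10.42 and 9.46 at 18 h. Neither gene passed the test between the times (limma adjusted p = 1 for both, and 0.906 and 0.58 with the replicate number as a block).

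The test between the times called 11 genes of 10847 with siBRG1 (0.101%), all of them higher at 48 h. They are Cox6a2, Csrp3, Myl4, Casq2, Tnnc2, Mylpf, Myom2, Tnnc1, Acta1, Actc1 and Srpk3, all genes of striated muscle. The test is limma's moderated test on all 12 arrays with Benjamini-Hochberg adjustment over 20415 probes, a call being an adjusted p under 0.05. At an unadjusted p under 0.05 there were 364 genes (3.36%), and 1368 (12.6%) with the replicate number as a block. That block sets arrays of the same replicate number together. With it 94 genes were called, 84 higher (0.774%) and 10 lower (0.0922%) at 48 h. A fixed BeadChip block gave 52 (0.479%), 50 higher (0.461%) and 2 lower (0.0184%), and a random BeadChip term gave 119 (1.1%).

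Leaving out 1 array leaves 1 in its group and fewer residual degrees of freedom. A change in the count then does not measure the influence of that array. With this limit, the count changed with the array left out. Without a block it was 0 without any 1 of the 4 siBRG1 arrays and 0 without either siBRM array at 48 h. It was 7 without either siBRM array at 18 h, and 9 or 10 without a siSCR array. With the replicate block it was 4 and 1 without the 48 h siBRG1 arrays of replicates 1 and 2, and 22 and 56 without their 18 h arrays. With that block it was 51 and 59 without a siBRM array at 48 h and at 18 h, and 160 and 60 without a siSCR array at 48 h and at 18 h. Under median scaling without a block 0 genes were called.

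**Figure D1:**
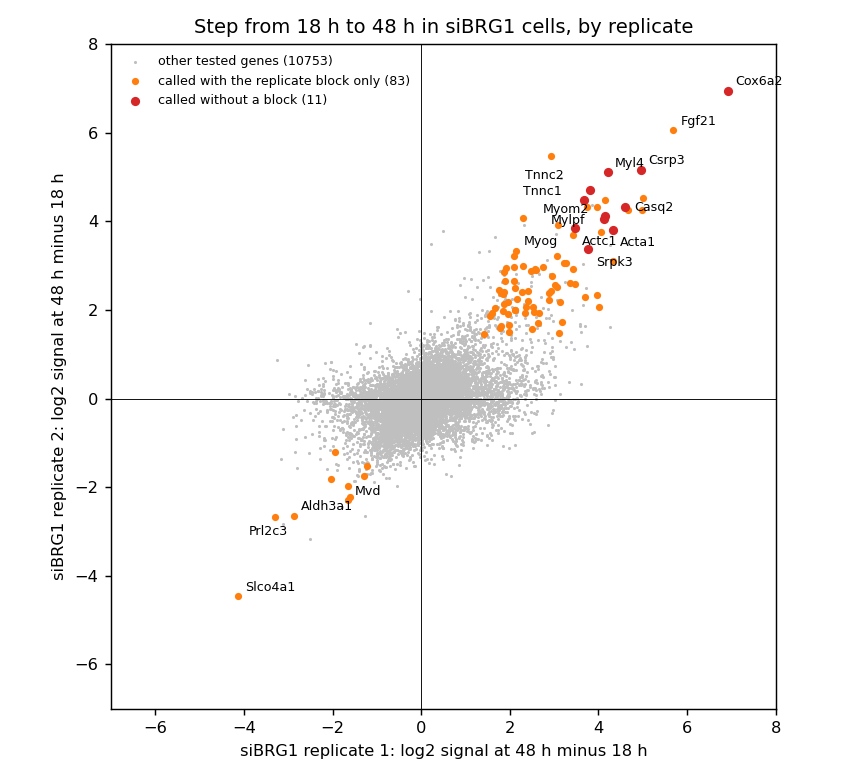
Each point is a tested gene, with its log2 step from 18 h to 48 h under siBRG1 in replicate 1 on the x axis and in replicate 2 on the y axis. The 11 genes called without a block (red) lie at steps above 3 in both replicates, with Cox6a2 farthest at 6.93 and 6.95, and the 10 falls called with the replicate block lie below 0 in both.

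Of the 11 called genes 8 are in the sarcomere list and 2, Cox6a2 and Casq2, in that of calcium handling and energy supply, and the remaining one is the muscle kinase gene Srpk3. The RefSeq promoter table used here (250 bases before to 50 after the transcription start, build GRCm38.p6) covers 9 of them, with 2 windows for Csrp3. The windows were searched on both strands for the E-box bound by MyoD and myogenin (CANNTG), the MCAT motif bound by TEAD factors (CATTCC), the CArG box bound by SRF and the MEF2 site. An E-box stood in a window of 8 of the 9 genes, against 72.1% of all 27025 promoters in the table. The CArG box stood in 2 windows (1.57% of all promoters), the MEF2 site in 2 (3.26%) and the MCAT motif in 2 (14.6%). No matches overlapped in the windows printed. Shown are the 4 windows with a CArG box or a MEF2 site, the rarest of these motifs, and that of Mylpf. At the digits given here Mylpf shared the lowest limma adjusted p of the called genes, 0.0175, with Tnnc2. Capitals mark every match, and a match describes the letters only. The first line is Acta1 (chr8:123894726-123895025, minus strand; 2 E-boxes, 1 CArG box and 1 MCAT motif) and the second Actc1 (chr2:114052826-114053125, minus; 1 E-box and 1 CArG box). Then follow Casq2 (chr3:102086165-102086464, plus; 2 E-boxes and 1 MEF2 site) and Srpk3 (chrX:73774155-73774454, plus; 2 E-boxes and 1 MEF2 site). The last is Mylpf (chr7:127211358-127211657, plus; 1 E-box).
Acta1: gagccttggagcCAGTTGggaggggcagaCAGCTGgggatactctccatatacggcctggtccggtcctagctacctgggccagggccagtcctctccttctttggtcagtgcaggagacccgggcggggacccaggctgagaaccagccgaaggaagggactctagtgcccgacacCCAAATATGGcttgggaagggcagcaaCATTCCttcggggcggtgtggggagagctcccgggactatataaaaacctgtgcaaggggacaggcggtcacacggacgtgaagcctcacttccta
Actc1: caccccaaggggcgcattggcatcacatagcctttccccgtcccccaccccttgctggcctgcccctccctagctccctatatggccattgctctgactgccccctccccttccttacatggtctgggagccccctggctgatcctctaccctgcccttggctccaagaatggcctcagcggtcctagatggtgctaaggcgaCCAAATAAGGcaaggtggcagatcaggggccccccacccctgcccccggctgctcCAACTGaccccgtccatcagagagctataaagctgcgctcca
Casq2: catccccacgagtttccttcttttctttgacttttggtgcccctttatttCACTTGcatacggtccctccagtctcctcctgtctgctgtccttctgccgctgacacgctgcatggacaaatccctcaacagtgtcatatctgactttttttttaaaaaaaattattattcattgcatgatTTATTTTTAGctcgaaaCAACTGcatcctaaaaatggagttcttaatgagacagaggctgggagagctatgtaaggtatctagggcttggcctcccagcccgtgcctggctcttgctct
Srpk3: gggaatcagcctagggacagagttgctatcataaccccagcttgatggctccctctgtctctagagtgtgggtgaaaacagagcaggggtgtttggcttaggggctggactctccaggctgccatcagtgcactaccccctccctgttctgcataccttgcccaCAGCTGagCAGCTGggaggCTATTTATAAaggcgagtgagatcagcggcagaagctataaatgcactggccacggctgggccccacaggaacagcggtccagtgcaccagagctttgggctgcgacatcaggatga
Mylpf: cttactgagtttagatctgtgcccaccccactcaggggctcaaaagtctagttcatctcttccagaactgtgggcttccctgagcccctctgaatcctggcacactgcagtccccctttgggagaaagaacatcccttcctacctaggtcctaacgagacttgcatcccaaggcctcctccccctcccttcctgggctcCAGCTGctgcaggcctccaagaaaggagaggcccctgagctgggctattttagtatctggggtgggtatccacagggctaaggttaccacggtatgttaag

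Both alpha-actins and several troponins of the thin filament rose in siBRG1 cells. Acta1, the skeletal alpha-actin whose window holds the CArG box and the MCAT motif, had 15.10 and 15.16 at 48 h, against 10.78 and 11.34 at 18 h. Actc1, the cardiac alpha-actin that is also made in young myotubes, had 14.83 and 15.32 at 48 h, against 11.36 and 11.48 at 18 h. For both actins every 48 h value lay above every 18 h value, and the steps of 4.07 ± 0.43 and 3.65 ± 0.45 (SE, n = 2) were called with limma's adjusted p of 0.0231 and 0.0322. Troponin C senses calcium on the thin filament. Its fast gene Tnnc2 had 14.54 and 14.91 at 48 h, against 10.74 and 10.21 at 18 h, a step of 4.25 ± 0.40 (limma adjusted p = 0.0175). Its slow gene Tnnc1 had 15.65 and 15.54 at 48 h, against 11.97 and 11.06 at 18 h, a step of 4.08 ± 0.50 (limma adjusted p = 0.0322). The fast and slow forms thus rose side by side. The fast troponin I gene Tnni2 had 12.13 and 13.94 at 48 h, against 8.16 and 9.63 at 18 h, and the fast troponin T gene Tnnt3 had 10.74 and 12.63, against 5.77 and 8.37. Both were called with the replicate block and not without one (limma adjusted p = 0.00244 and 0.00354), and at 18 h in replicate 1 Tnnt3 was at background. The slow troponins Tnni1 and Tnnt1 also passed with that block and not without one (limma adjusted p = 0.00244 and 0.0133). The tropomyosins, which lie along the actin filament, moved less, with steps of 0.22 and 0.06 for Tpm1, 0.81 and 0.91 for Tpm2 and 0.24 and -0.31 for Tpm3. None of these, nor the filament-capping Tmod1 and Tmod4, was called in either fit (limma adjusted p from 0.0841 for Tmod1 to 0.976 for Tpm3 with the block). The highest values at 48 h lie close to 16.1, the highest normalized signal on any array, and whether signals there still resolve differences was not tested.

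The light-chain genes Mylpf, Myl4 and Myl1 of the thick filament rose as well. Mylpf, the fast regulatory light chain, had 15.29 and 15.39 at 48 h, against 11.15 and 11.28 at 18 h, a step of 4.12 ± 0.39 (limma adjusted p = 0.0175). Myl4, the light chain of embryonic and atrial muscle, had 15.52 and 15.44 at 48 h, against 11.31 and 10.32 at 18 h, a step of 4.66 ± 0.52 (limma adjusted p = 0.0236). Myl1, the essential light chain of fast fibres, had 14.97 and 14.72 at 48 h, against 12.22 and 11.76 at 18 h. Its step of 2.86 ± 0.30 passed with the replicate block (limma adjusted p = 0.00521) and not without it (0.0913). Of the myosin heavy chains, the perinatal Myh8 had 9.31 and 7.90 at 48 h and was at background at 18 h, at least 3.62-fold higher, and was not called (limma adjusted p = 0.0641 with the replicate block). The adult fast gene Myh1 was at background on all 4 arrays, and Myh3, Myh4 and Myh7 had no tested probe. These light chains thus passed where the heavy chain with a signal did not.

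The M-band and the Z-disc gave further calls. Myom2, the M-band protein that links myosin filaments, had 11.91 and 11.69 at 48 h, against 7.79 and 7.63 at 18 h, a step of 4.09 ± 0.52 (limma adjusted p = 0.0347). Its relative Myom3 had 9.61 and 9.70 at 48 h, against 5.28 and 6.59 at 18 h, the first of which is at background, and was called with the replicate block (limma adjusted p = 0.00354; 0.055 without it). Csrp3, the muscle LIM protein of the Z-disc, had 10.54 and 10.49 at 48 h and was not well above background on either array at 18 h. It was at least 13.6-fold higher at 48 h, against the detection limit of the 18 h arrays (limma adjusted p = 0.0236). Ankrd2, an ankyrin-repeat protein of the I-band, had 8.61 and 9.59 at 48 h and was at background at 18 h, at least 5.11-fold higher, with a call in the replicate block (limma adjusted p = 0.0133). Lmod3, the nucleator of thin filaments, had 6.98 and 8.55 at 48 h, against 5.26 (background) and 6.32 at 18 h. It was called in neither fit (limma adjusted p = 1, and 0.056 with the block).

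Across the sarcomere list, 34 of 41 tested genes had a positive step in both replicates and 0 a negative one in both, a share of 82.9% against 31.0% of all tested genes. The median step was 2.38 (2.12 in replicate 1 and 2.50 in replicate 2), against -0.02 over all genes. Without a block 8 of the 41 rose, and with the replicate block 18, against 0.101% and 0.774% of all genes. Holding each gene that was at background to its bound gave a median of 2.07.

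**Figure D2:**
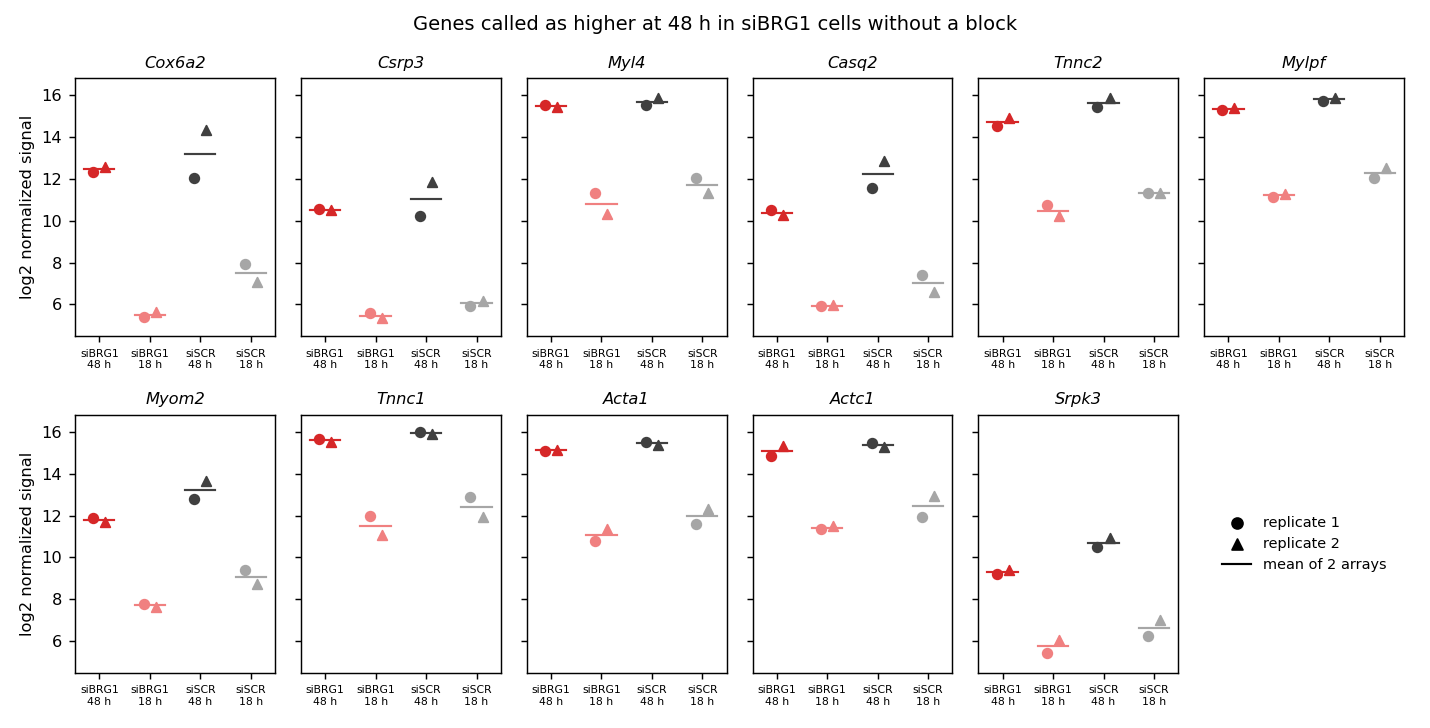
Log2 normalized signal of the 11 genes called without a block, on each array (circle, replicate 1; triangle, replicate 2; bar, mean of the 2), with siBRG1 at 48 h and 18 h and siSCR at 48 h and 18 h from left to right. In each panel both siBRG1 values at 48 h lie above both at 18 h, and Cox6a2, Csrp3, Casq2 and Srpk3 lie between 5.33 and 6.05 at 18 h with siBRG1, where they were at background.

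The other called genes serve calcium storage, energy and signalling in muscle. Cox6a2, the muscle form of a subunit of cytochrome c oxidase, had 12.32 and 12.58 at 48 h and was at background at 18 h (5.40 and 5.63). It was at least 52-fold higher at 48 h, the largest bound among the called genes, with limma's adjusted p = 0.0231. Cox8b, another muscle form of that enzyme, had 10.07 and 10.45 at 48 h and was at background at 18 h, at least 11.4-fold higher, with a call in the replicate block (limma adjusted p = 0.0042). Casq2, which stores calcium in the sarcoplasmic reticulum, had 10.51 and 10.27 at 48 h and was at background at 18 h, at least 12.5-fold higher (limma adjusted p = 0.0322). Srpk3, a muscle kinase of splicing factors, had 9.23 and 9.42 at 48 h and was at background at 18 h, at least 5.97-fold higher (limma adjusted p = 0.0322). These 4 genes had a signal at 48 h alone.

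Atp2a1, the fast calcium pump, had 12.87 and 13.27 at 48 h, against 9.65 and 10.21 at 18 h, and rose by 3.14 ± 0.26 with the replicate block (limma adjusted p = 0.00244; 0.0628 without it). The calcium release channel Ryr1 had 9.81 and 8.82 at 48 h, against 5.84 (background) and 6.47 at 18 h, with limma's adjusted p = 0.0308 in that block. Muscle creatine kinase, Ckm, had 9.65 and 10.72 at 48 h, against 5.51 (background) and 6.24 at 18 h, with 0.011. The pump, the channel and the kinase thus passed the test with the block and not without it, at the same fitted steps. Pygm, the glycogen phosphorylase of muscle, had 7.17 and 7.10 at 48 h and was at background at 18 h, at least 1.31-fold higher, and was not called (limma adjusted p = 0.232 with the block). In the list of calcium handling and energy supply, 25 of 35 tested genes were higher in both replicates and 1 was lower. That is 71.4% higher, against 31.0% of all tested genes, and the median step was 1.34 (1.32 and 1.24). Without a block 2 rose and with it 11, against 0.101% and 0.774% of all tested genes. The median was 0.78 with background genes held to their bounds, and 0.63 both without background correction and with the authors' normalized table. The nuclear genes of oxidative phosphorylation that all cells use had a median of 0.20 over 57 genes. None of them was called by limma in either fit. At an unadjusted p under 0.05 there were 0 and 2, against 3.36% and 12.6% of all tested genes.

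Genes of fusion, membrane repair and the synapse moved less as a list. Their median step was 0.55 (0.49 and 0.36) over 38 genes, and 0.31 without background correction. In both replicates 22 were higher and 5 lower (57.9% and 13.2%), against 31.0% and 33.9% of all tested genes. No member was called by limma without a block, and 4 rose with the replicate block, against 0.101% and 0.774% of all tested genes. Without a block 10 had an unadjusted p under 0.05, against 3.36% of all tested genes. Chrng, the fetal subunit of the acetylcholine receptor, had 14.35 and 13.35 at 48 h, against 11.94 and 11.15 at 18 h (limma adjusted p = 0.0116 with the block). Trim72, which seals membrane wounds, had 11.19 and 10.88, against 8.88 and 6.80 (0.0283). Dysf, the repair protein dysferlin, had 9.15 and 8.57, against 6.50 (background) and 6.86 (0.0133). Sgca, a sarcoglycan of the dystrophin complex, had 10.06 and 10.09, against 7.59 and 7.22 (0.0347). All 4 genes were higher in both replicates without overlap between the times, as were 12.3% of all tested genes. Mymk, the membrane protein that drives myoblast fusion, had 12.40 and 11.44 at 48 h, against 9.36 and 7.72 at 18 h, a step of 3.38 ± 0.62 that missed the threshold (limma adjusted p = 0.0584 with the block). The muscle cadherin Cdh15 had 13.44 and 13.04, against 12.33 and 12.08, and Chrna1, the alpha subunit of the receptor, had 13.62 and 14.35, against 12.10 and 13.26. Neither was called (limma adjusted p = 0.168 and 0.0766 with the block).

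Among the myogenic transcription factors Myog rose with the replicate block. Myogenin, which turns on the late muscle programme, had 12.08 and 13.16 at 48 h, against 9.93 and 9.82 at 18 h, a step of 2.74 ± 0.33 (limma adjusted p = 0.0107; 0.351 without the block). Myod1, which commits myoblasts to muscle, had 10.05 and 11.08 at 48 h, against 7.38 and 9.14 at 18 h (limma adjusted p = 0.0562 with the block). Tead4, a factor of the MCAT motif, had 9.56 and 9.38, against 7.92 and 7.57 (0.0584). Mef2c had 9.20 and 8.28, against 8.61 and 6.78 (0.449). Each of the 4 was higher at 48 h within both replicates, though Myog alone passed. Of the 21 tested genes of the list 12 were higher and 3 lower in both replicates. These shares are 57.1% and 14.3%, against 31.0% and 33.9% of all tested genes. Myog was the 1 call of the list with the block, where 0.774% of all tested genes rose. The list had a median of 0.31, and its mean steps ran from -1.40 to 2.74. Of the inhibitors of myogenic factors, Id1 had steps of 0.46 and 0.44, Id2 of 0.25 and 0.71, and Id3 was at background at 18 h in replicate 1 and had a step of 0.56 in replicate 2. None of the 20 genes that hold back myogenesis or mark progenitors was called by limma. At an unadjusted p under 0.05 there were 3 without and 6 with the block, against 3.36% and 12.6% of all tested genes.

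Klhl41, a muscle adaptor of a ubiquitin ligase, had 11.82 and 11.77 at 48 h, against 9.93 and 9.12 at 18 h (limma adjusted p = 0.011 with the block). It was the only call among the 11 tested genes of muscle ubiquitin ligases and proteolysis, against 0.774% of all tested genes. The median step of this list was 0.81, and 0.48 without background correction.

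Cell-cycle genes were lower at 48 h as lists, and none was called. Of the 60 tested genes of G1/S and DNA replication 46 were lower and 4 higher in both replicates, which is 76.7% lower against 33.9% of all tested genes. Their median step was -0.74 (-0.58 in replicate 1 and -0.88 in replicate 2). Of the 66 genes of G2 phase and mitosis 49 were lower and 1 higher in both, with a median of -0.63 (-0.50 and -0.68). By limma 0 members of either list were called without a block or with the replicate block. At an unadjusted p under 0.05 there were 4 G1/S genes and 2 G2/M genes without a block, all lower, and 27 and 24 lower with it, against 0.691% and 5.82% of all tested genes. Cdc6, which loads the replicative helicase, had 7.80 and 8.14 at 48 h, with steps of -1.51 and -1.86. Mcm5, part of that helicase, had 12.68 and 12.51, against 13.22 and 13.98. Cyclin D1, Ccnd1, had 12.82 and 12.21, against 13.23 and 13.46. All 3 were lower at 48 h in both replicates, with steps between -0.41 and -1.86 within replicates.

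Among the mitotic genes, the kinase Cdk1 had 11.50 and 11.59 at 48 h, against 11.91 and 12.22 at 18 h. Top2a, which untangles chromosomes, had 11.83 and 11.86, against 12.51 and 12.65. Nuf2, of the kinetochore, had 7.65 and 7.42, against 8.41 and 8.86. All 3 were lower in both replicates by 0.41 or more, and limma's adjusted p with the block ran from 0.21 for Nuf2 to 0.596 for Cdk1. Cdkn1a, the inhibitor p21 that holds myocytes out of the cycle, had 15.32 and 14.95 at 48 h, against 14.25 and 13.29 at 18 h, and was not called (0.262 with the block). Cyclin D3, Ccnd3, which stays on in myotubes, had 13.86 and 13.97, against 13.45 and 12.99. Gadd45a, a growth-arrest gene, had 12.77 and 13.19, against 10.61 and 11.23 (0.119). Cdkn1c, the inhibitor p57, was at background at 18 h and at least 1.94-fold higher at 48 h (0.122). The 17 cell-cycle inhibitors had a median step of -0.19 in replicate 1 and 0.22 in replicate 2, so the list had no shared direction.

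The 10 falls that the replicate block called were in no gene list apart from 1 sterol gene. None was called without a block. Slco4a1, an organic anion transporter, had 8.24 and 6.87 at 48 h, against 12.38 and 11.33 at 18 h, a step of -4.30 ± 0.67 (limma adjusted p = 0.0318 with the block). Prl2c3, of the proliferin family of secreted hormones, had 7.34 and 6.41, against 10.65 and 9.08, a step of -2.99 ± 0.48 (0.0347). Aldh3a1, an aldehyde dehydrogenase, had 12.45 and 12.63, against 15.33 and 15.27, a step of -2.76 ± 0.35 (0.0133). Proliferin genes are close copies of each other, so the Prl2c3 probe may read more than 1 of them. The RNA-binding gene Rbm15 had a step of -1.92, and Nanos1, Cobll1, Zmym1, Mblac2 and Zfp280b had steps between -1.92 and -1.37. All 10 were lower at 48 h in both siSCR replicates too.

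Mvd, which makes isopentenyl diphosphate in the sterol pathway, had 11 and 9.67 at 48 h, against 12.66 and 11.96 at 18 h, a step of -1.97 ± 0.27 (limma adjusted p = 0.017 with the replicate block and 0.0489 with the BeadChip block). It was the 1 member of the list of cholesterol and fatty acid synthesis called with either fixed block, and with the random BeadChip term Lss, which closes the sterol rings, was called too (limma adjusted p = 0.0407). Lss and the slow troponin, tropomyosin and tropomodulin genes above were chosen after their values were seen. Of the 26 tested members 23 were lower in both replicates and 0 higher, a share of 88.5% against 33.9% of all tested genes. The median step was -0.80 (-0.76 and -0.97), and 6 members had an unadjusted p under 0.05 without a block and 14 with it, all of them lower (0.691% and 5.82% of all tested genes).

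**Figure D3:**
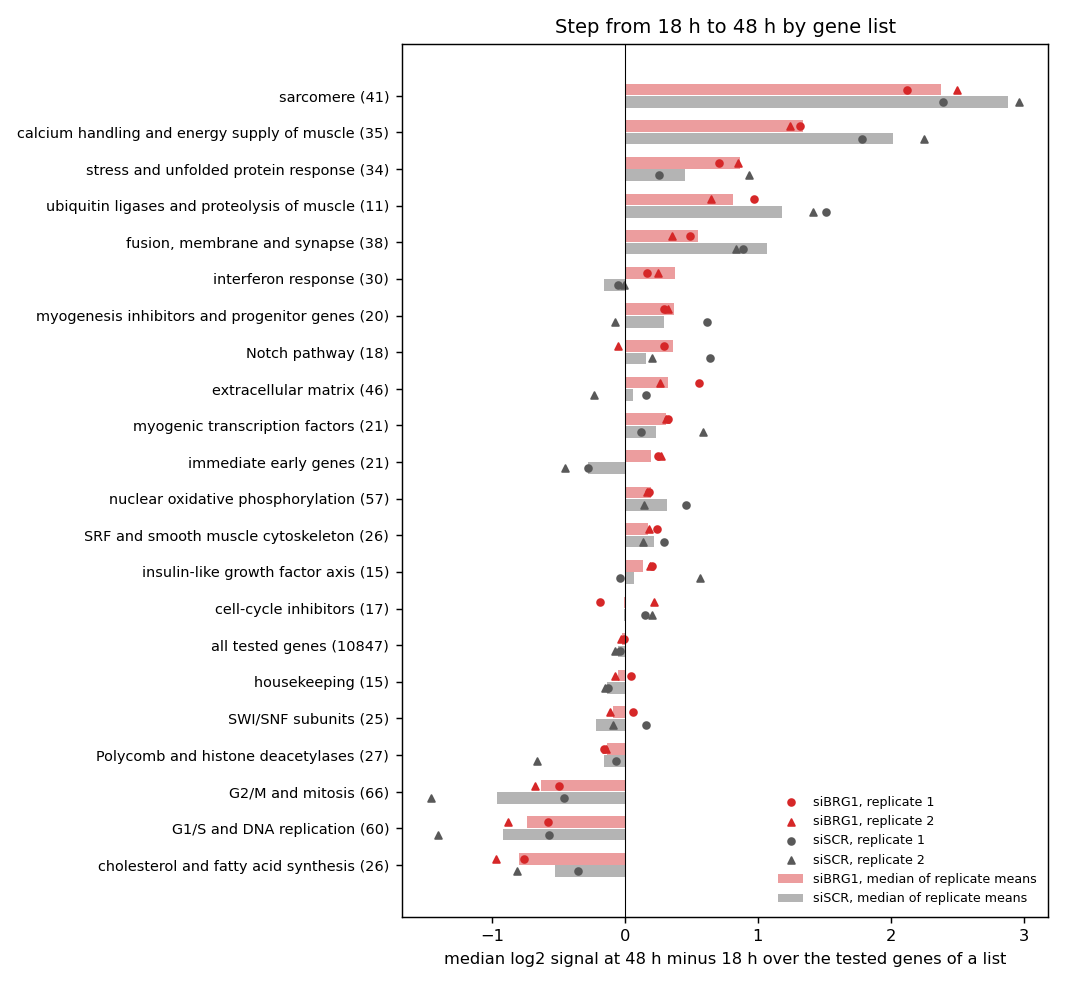
Median log2 step from 18 h to 48 h over the tested genes of each list (number in brackets), with siBRG1 in red above siSCR in grey. Bars give the median of the replicate means, circles replicate 1 and triangles replicate 2. With siBRG1 the sarcomere list stands at 2.38 and sterol synthesis at -0.80, against 2.88 and -0.52 with siSCR.

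Of the stress and matrix lists 2 genes each were called as higher with the replicate block, and so were Fgf21 and Igf2. Fgf21, a hormone released by stressed muscle, had 13.04 and 12.98 at 48 h, against 7.34 (background) and 6.92 at 18 h, a step of 6.06 in replicate 2 and a difference of at least 51.3-fold in replicate 1. It was called with the replicate block (limma adjusted p = 0.0229; 0.0913 without it). Herpud1, which serves the disposal of misfolded proteins, had 13.61 and 13.70 at 48 h, against 11.64 and 11.79 at 18 h (0.0229 with the block). Nupr1, a stress-induced nuclear protein, had 13.60 and 14.24, against 10.70 and 12.02 (0.0399). Of the 34 genes of stress and unfolded protein response 24 were higher and 8 lower in both replicates. These shares are 70.6% and 23.5%, against 31.0% and 33.9% of all tested genes. The median step was 0.87 (0.71 and 0.85). Herpud1 and Nupr1 were the calls of this list with the block, where 0.774% of all tested genes rose.

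Igf2, the growth factor that myoblasts make for themselves, had 14.11 and 13.57 at 48 h, against 11.99 and 11.58 at 18 h, and rose by 2.05 ± 0.29 with the replicate block (limma adjusted p = 0.0202). Igfbp5, a binding protein of that factor, was among the brightest genes at both times, with 15.50 and 15.45 at 48 h and 15.23 and 15.46 at 18 h. Of the 46 tested matrix genes 2 rose with the block, against 0.774% of all tested genes. The proteoglycan decorin, Dcn, had 11.64 and 12.48 at 48 h, against 9.53 and 10.49 at 18 h (limma adjusted p = 0.0276). The collagen gene Col1a1 had 9.68 and 10.15, against 6.20 (background) and 7.56 (0.0355). Over the 46 matrix genes 28 were higher and 4 lower in both replicates, with a median of 0.32 (0.56 and 0.26). These shares are 60.9% and 8.7%, against 31.0% and 33.9% of all tested genes.

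Interferon response genes had a median step of 0.38 (0.16 and 0.25 within replicates) over 30 genes, 16 of them higher and 6 lower in both replicates. These shares are 53.3% and 20.0%, against 31.0% and 33.9% of all tested genes. The antiviral gene Ifit3 had 8.07 and 7.54 at 48 h, against 5.69 (background) and 6.55 at 18 h. Oasl2, a relative of the oligoadenylate synthetases, had 8.65 and 8.31, against 7.16 (background) and 7.58. The immunoproteasome subunit Psmb8 had 8.67 and 8.77, against 8.60 and 7.29, and the factor Irf1 had 12.87 on both arrays, against 12.69 and 13.12. None of these genes was called by limma, and the list had 0 calls in either fit, with 1 and 4 genes at an unadjusted p under 0.05, near the 3.36% and 12.6% of all tested genes. Immediate early genes had a median of 0.20, with Klf4 at 9.16 and 9.35 at 48 h, against 5.90 (background) and 6.72 at 18 h (limma adjusted p = 0.163 with the block). In the Notch list, whose median was 0.30 in replicate 1 and -0.05 in replicate 2 (0.07 for the mean step with background genes held to bounds), the target Hey1 had steps of 1.33 and 1.28 and Hes1 of 0.11 and -0.29. The step of Hes1, which averaged -0.09, was 0.16 under median scaling. The chromatin lists stood near 0, with medians of -0.09 for SWI/SNF subunits and -0.13 for Polycomb and histone deacetylases (0.17 and 0.14 under median scaling), although Hdac11 had 8.38 and 8.44 at 48 h, against 5.80 (background) and 6.61 at 18 h (0.0864). The 15 housekeeping genes had a median of -0.05, and 0.18 under median scaling. Actb had steps of -0.09 and -0.16 and Gapdh of -0.32 and -0.13, and under median scaling the mean step of Gapdh was 0.0063.

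The same step in siSCR cells shows how far the siBRG1 step departs from it. The 2 steps are taken from different arrays, though these share the 3 BeadChips. Their tests come from the same fit to all arrays of the series, so each gene has the same residual variance in both. The overlaps of calls given below are therefore not overlaps between independent tests. With siSCR limma called 35 genes (0.323%), 33 higher (0.304%) and 2 lower (0.0184%). With the replicate block it called 287 (2.65%), 198 higher (1.83%) and 89 lower (0.821%). Without a block the siSCR count was 16 without the 48 h array of replicate 1 and 0 without any other siSCR array, and with it 1068, 87, 39 and 103 without the 48 h and then the 18 h arrays of replicates 1 and 2. All 11 genes called with siBRG1 were among the 33 rises with siSCR, which is 100% of the one list and 33.3% of the other. With the replicate block 74 genes rose in both, which is 88.1% of the 84 siBRG1 rises and 37.4% of the 198 siSCR rises. Of the 33 genes called as higher with siSCR, all 33 were also higher at 48 h in both siBRG1 replicates, with a median step of 3.15 with siBRG1 and 4.0 with siSCR. Of the 198, 188 were higher and 3 lower in both siBRG1 replicates, with medians of 1.96 and 2.45. Of the 89 siSCR falls 87 were lower in both siBRG1 replicates, with medians of -0.94 and -1.61. These sets were chosen on their siSCR values, which by itself favours larger siSCR steps, so the smaller siBRG1 medians are a description. Over the 84 genes chosen on siBRG1 values the medians were 2.67 with siBRG1 and 2.85 with siSCR.

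**Figure D4:**
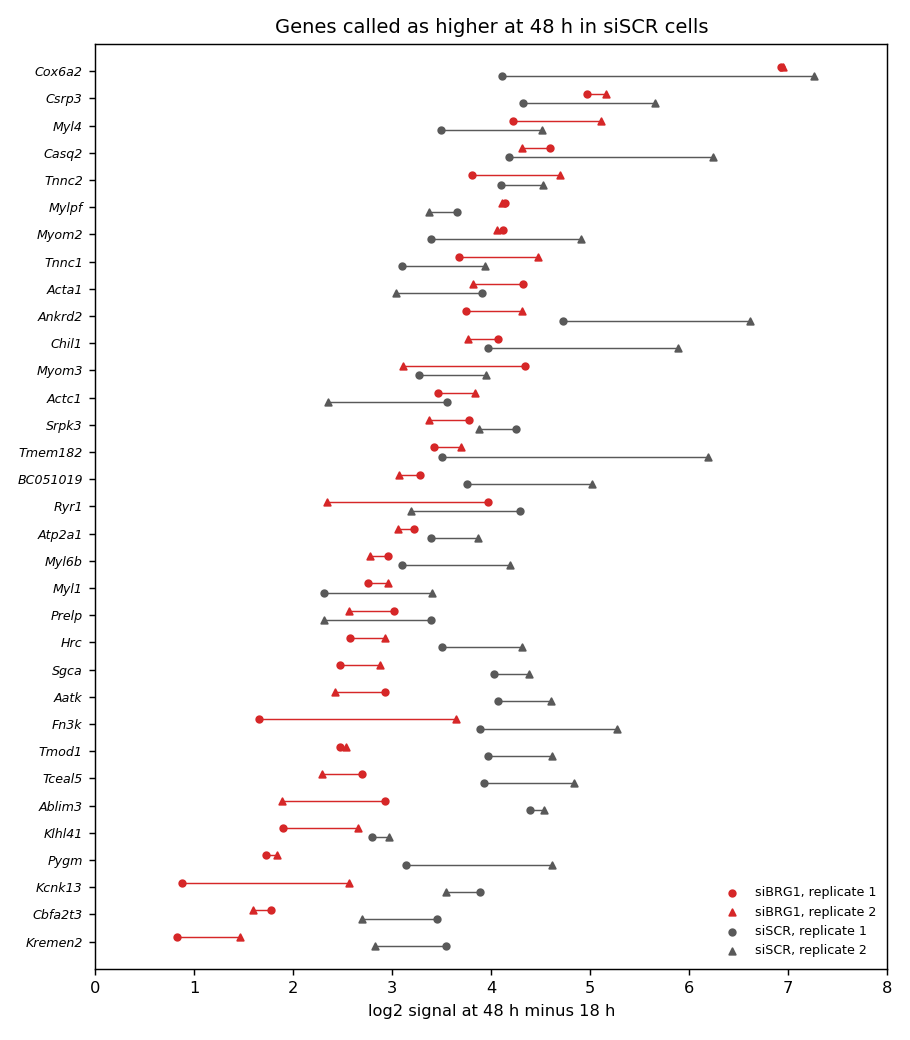
Log2 step from 18 h to 48 h of the 33 genes called as higher with siSCR, ordered by the mean siBRG1 step, with siBRG1 in red above siSCR in grey. Circles are replicate 1, triangles replicate 2, and the line joins them. All red points lie above 0, and the siBRG1 mean runs from 1.14 for Kremen2 to 6.94 for Cox6a2.

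By list, the sarcomere median was 2.38 with siBRG1 and 2.88 with siSCR, that of calcium and energy genes 1.34 and 2.02 and that of fusion genes 0.55 and 1.07. For the sarcomere 17 of the 41 genes had a smaller step with siBRG1 in both replicates and 9 a larger one. For calcium and energy it was 17 and 3 of 35, and for fusion 16 and 4 of 38, against 2528 and 3292 of all 10847 genes. For mitosis the medians were -0.63 with siBRG1 and -0.96 with siSCR, and for G1/S -0.74 and -0.91. The gap lay in replicate 2, with -0.68 and -1.46 for mitosis and -0.88 and -1.40 for G1/S, while replicate 1 had -0.50 and -0.46, and -0.58 and -0.57. Of the 66 mitotic genes 35 had a step with siBRG1 that was above the siSCR step in both replicates, and 1 had one below. Matrix genes had medians of 0.32 with siBRG1 and 0.06 with siSCR, with 29 of 46 above the siSCR step in both replicates and 5 below.

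The difference between the siBRG1 step and the siSCR step was tested for every gene, and limma called 0 genes without a block, with the replicate block and with either BeadChip term. At an unadjusted p under 0.05 there were 61, 404, 477 and 506 of the 10847 tested genes in these 4 fits. Their share was under 0.05 in each fit. A miss of the threshold does not show that steps are alike, and the intervals are wide. For Tnnc2 the siBRG1 step minus the siSCR step was -0.06, with a 95% interval from -1.03 to 0.91 in the fit with the replicate block. For Acta1 it was 0.60 (from -0.43 to 1.64), for Mylpf 0.61 (from -0.16 to 1.39) and for Myog 0.07 (from -0.99 to 1.14). For Casq2 it was -0.76 (from -2.29 to 0.78). These intervals are for single genes and are not adjusted. All 5 include 0, and that of Tnnc2 leaves room for differences of up to about 1 log2 unit either way. Most other named genes had intervals that include 0, but some did not. The interval lay below 0 for Lmod3 (from -3.27 to -0.98), Sgca (from -2.90 to -0.16) and Mvd (from -1.72 to -0.0054). The same held for Pygm, Kremen2, Cbfa2t3, Kcnk13, Ido1, Plpp7 and Rnf220, which are taken up below. It lay above 0 for Ifit3 (from 0.64 to 2.99) and Oasl2 (from 0.35 to 3.06). Aldh1a3 (from 1.83 to 3.70), Gcnt2 and Krt14, also taken up below, had intervals above 0 too. For all of these genes limma's adjusted p for the difference was 0.999.

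The 5 siSCR rises with the smallest siBRG1 step were Kremen2, Cbfa2t3, Kcnk13, Pygm and Klhl41. Kremen2, a receptor of Wnt inhibitors, had 7.39 and 7.75 at 48 h with siBRG1, against 6.57 (background) and 6.28 at 18 h. With siSCR it had 8.62 and 8.49 at 48 h and was at background at 18 h. Its siBRG1 step minus its siSCR step was -2.03. The potassium channel gene Kcnk13 had 7.43 and 7.85 at 48 h with siBRG1, against 8.97 and 9.10 at 48 h with siSCR, and the transcriptional corepressor gene Cbfa2t3 had 7.04 and 6.90, against 8.48 and 8.46. Pygm had 7.17 and 7.10 at 48 h with siBRG1, against 8.21 and 9.94 with siSCR. Lmod3 had a difference of steps of -2.13 and Sgca of -1.53. These genes were chosen for a small siBRG1 step or with these differences in view, so the differences are a description, and all of these genes had an adjusted p of 0.999 for the difference. Kremen2, Cbfa2t3, Kcnk13 and Pygm lie near background, so that the detection limit sets part of each step. This holds for Lmod3 too, which was at background at 18 h with siBRG1 in replicate 1.

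Steps of opposite sign in both replicates were rare among called genes. Aldh1a3, which makes retinoic acid, was the only gene called with siBRG1 in the replicate block whose siSCR steps were both opposite. It had 8.61 and 8.34 at 48 h with siBRG1, against 6.63 (background) and 6.84 at 18 h, while with siSCR it had 6.87 and 6.40, against 7.81 and 7.51. Its siBRG1 step minus its siSCR step was 2.76, again with limma's adjusted p of 0.999 for the difference. Of the 287 genes called with siSCR in that block 5 had opposite siBRG1 steps in both replicates, Gcnt2, Ido1, Krt14, Plpp7 and Rnf220. The keratin gene Krt14 had 10.99 and 10.27 at 48 h with siBRG1, against 10.95 and 9.18 at 18 h, and with siSCR it had 9.38 and 8.46, against 11.45 and 9.84. The glycosyltransferase gene Gcnt2 had steps of 0.18 and 0.31 with siBRG1, against -1.18 and -1.54 with siSCR. Ido1, Plpp7 and, in replicate 1, Rnf220 were at background at 48 h with siBRG1. These 6 genes were chosen after their values were seen.

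In siBRM cells the 33 siSCR rises had a median step of 3.96, and the sarcomere list one of 2.92. The siBRG1 step minus the siBRM step was called by limma for 0 genes in each of the 4 fits. At an unadjusted p under 0.05 there were 89, 431, 514 and 551 of the 10847 tested genes. Their share was under 0.05 in all but the last of these fits.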

How the data were processed

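RNA of 12 C2C12 samples was read on Illumina mouse BeadChips. The deposited intensities are bead-averaged signals per probe on a linear scale, and the authors' detection p-values set a probe against its array's negative controls. Bead numbers and bead standard errors are other columns there, per the file headers. A second deposited table of intensities has nearly the same quantiles on every array and was used as an alternative. The submitters' processing notes name GenomeStudio 2009.1, with no more on the steps given in the sources used here.

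Background was inferred from the detection p-values (normexp, offset 16, limma 3.58.1 in R 4.3.3, statmod 1.5.0), and signals were quantile normalized and taken to log2. A probe was tested with detection p under 0.05 on at least 2 arrays, which left 20415 of 45281 probes. Of the array's probes 34885 had 1 gene symbol, 18 several and 10378 none, and 34807 gene IDs matched RefSeq (GRCm38.p6). A gene was read from its brightest tested probe. In 4219 genes with several tested probes the siBRG1 step had 1 sign in 58.8%. The fit gave each of 6 groups a mean and left 6 residual degrees of freedom. An SE after ± is that of the fit whose adjusted p stands beside it, and without a block it includes the shift between BeadChips. A gene at background on the 18 h arrays is given as a bound against their lowest detected signal.

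The replicate numbers in the titles were used to pair the samples. Deviations from group means gave r between 0.449 and 0.825 in 15 pairs of groups (0.769 for siBRG1 at 48 h and 18 h). All replicate 2 arrays share a BeadChip that holds no replicate 1 array. These r values therefore cannot tell a pairing of samples from a shift between BeadChips. The replicate block lowered the median residual variance to 0.137, against 0.441 without it. With the BeadChip as a fixed block the time step averaged over siRNAs rests on the BeadChip of replicate 2.

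Named are the targets, the 12 largest rises and falls among calls, up to 4 called members of each list (or the 2 with the smallest p), the siSCR rises with the smallest and largest siBRG1 step, and a fixed set of muscle, cell-cycle and control genes. The members and lists were chosen with earlier results of these data known. The alternatives covered normalization, background, detection filters, blocks and each array left out. Only the siBRG1 step in the fit without a block was tried on simulated data. These data held independent noise and no replicate or BeadChip shift. No blocked fit and no difference of steps was tried on them.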

Additional observations from a re-analysis of the deposited data

Results flagged for a closer look

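The median step of the interferon response genes was 0.38 with siBRG1 (0.16 in replicate 1 and 0.25 in replicate 2), against -0.16 with siSCR (-0.05 and -0.01). The median of the immediate early genes was 0.20 with siBRG1 (0.25 and 0.27), against -0.27 with siSCR (-0.27 and -0.45). Both lists drew attention because the medians had opposite signs in every replicate of the 2 siRNAs. Over all tested genes the siSCR median was -0.04 in replicate 1 and -0.07 in replicate 2. The interferon median of -0.01 in replicate 2 lies above the latter. Median scaling moved the siSCR median over all tested genes from -0.06 to 0.27, so these signs hold only relative to where the scaling puts 0. The difference was not tested for the lists, and of their single genes limma called 0 for a difference of steps.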

How the results depend on the processing

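The count of 11 siBRG1 genes was 94 with the replicate block (the pairing above), 52 with the fixed and 119 with the random BeadChip block, and 0 under median scaling or when the fit used the 4 siBRG1 arrays alone. Together with the replicate block it was 131 under median scaling and 197 both without background correction and with the authors' normalized table, all 3 chosen after seeing the data. Leaving out 1 array gave 0 to 160 genes, with and without that block. The 35 siSCR genes became 287, 179 and 300 with these blocks, 0 under median scaling and 12 among genes detected on all 4 siBRG1 arrays. With the replicate block they became 394 under median scaling, 696 without background correction and 689 with the authors' table, and 0 to 1068 with 1 array left out. The 2 tests of a difference of steps gave 0 calls under every alternative run. The sarcomere median of 2.38 was 1.61 without background correction, 1.62 with the authors' table, 2.07 with background genes held to bounds, and 2.13 to 2.69 with 1 array left out. That of G1/S was -1.04 and -0.98 with the fixed and random BeadChip block. That of G2/M was -0.44 without background correction, -0.44 with the authors' table, -0.37 under median scaling, -0.50 in replicate 1 alone and -0.76 to -0.48 with 1 array left out. None of these 3 medians turned its sign.

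Signs turned for genes that were not called. Under median scaling, with or without the replicate block, the mean step was 0.013 for Myh1, 0.24 for Irf1, 0.16 for Hes1, 0.25 for Tpm3, 0.11 for Tmod4 and 0.0063 for Gapdh. With the fixed and random BeadChip block that of Myh1 was 0.41 and 0.31 and that of Tmod4 0.37 and 0.22. With 1 siBRG1 array left out the range was -1.14 to 0.82 for Smarca4, -0.051 to 1.11 for Smarca2, -0.29 to 0.27 for Myh1, -0.22 to 1.17 for Id2, -0.32 to 0.24 for Irf1, -0.22 to 0.047 for Hes1 and -0.30 to 0.049 for Actb. It was -0.14 to 0.63 for Gcnt2, -0.80 to 0.13 for Ido1, -0.32 to 1.46 for Krt14, -0.67 to 0.20 for Plpp7, -1.67 to 1.32 for Rnf220, -0.093 to 0.37 for Tpm1, -0.37 to 0.29 for Tpm3 and -1.01 to 0.58 for Tmod4. The cause of these changes was not tested. Of the 100 genes named with values, 40 passed the threshold with the replicate block and not without it, and no gene called without a block lost its call with it. When a gene was read from the mean of its tested probes, the step moved for 23 of the 100 and was rated the same for 77. Genes near the detection limit and signals near the top of the scale limit the size of a step. The 2 arrays of a group limit the precision of every value.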

Other observations

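Of the 84 genes that rose with siBRG1 in the replicate block 45 (53.6%) were in none of the gene lists. Those named here were chosen after their values were seen. Follistatin, Fst, which binds myostatin, had 9.86 and 9.03 at 48 h, against 7.95 and 6.10 (background) at 18 h (limma adjusted p = 0.0421 with the block). Fndc5, the precursor of irisin, had 9.48 and 8.98 at 48 h and was at background at 18 h, at least 5.56-fold higher (0.0365). Both genes encode proteins that muscle cells release.

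The iron exporter gene Slc40a1 had 14.57 and 13.72 at 48 h with siBRG1, against 12.22 and 11.78 at 18 h (limma adjusted p = 0.0318 with the block), while with siSCR it had 12.38 and 12.52, against 11.98 and 10.92. Socs2, a feedback inhibitor of growth hormone signalling, had 10.10 and 9.90 at 48 h with siBRG1, against 6.39 (background) and 7.61 at 18 h (0.0133), while with siSCR it had 9.76 and 9.60, against 8.75 and 8.45. The serotonin receptor gene Htr2b had 9.10 and 8.31 at 48 h with siBRG1 and was at background at 18 h, at least 3.88-fold higher (0.00694).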
